A study of Mus musculus with 20 samples.

Results

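The comparison set hearts of MuRF1 +/+ mice on chow against a reference made of whole newborn mice, gene by gene. It rests on 3 of the 20 arrays of the series, those whose titles give the MuRF1 +/+ genotype and the chow diet. Each array was hybridised with 2 labelled samples, RNA of 1 heart in the red channel (Cy5) and RNA pooled from whole C57BL/6 pups of postnatal day 1 in the green channel (Cy3). The mice carried both copies of MuRF1, a ubiquitin ligase of striated muscle whose gene is Trim63, and had 8 weeks of chow without fenofibrate. The labels call the hearts biological replicates. They give no sex and no strain for the hearts, and no age beyond the weeks of diet, so that the word adult is not in them. The other 17 arrays held MuRF1 -/- hearts on chow (3) and hearts of both genotypes on chow with 0.05% fenofibrate for 3 weeks (4 each) or 8 weeks (3 each), all against pooled pups labelled in the same way.

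A ventricular heart muscle cell contracts through sarcomeres built from cardiac forms of myosin, actin, troponin and their partners, is paced by calcium released from and pumped back into the sarcoplasmic reticulum, and draws its ATP largely from fatty acids burned in densely packed mitochondria. Around birth the rodent heart moves from glucose and lactate to fatty acids, replaces fetal sarcomere forms with adult ones, and its muscle cells stop dividing. The newborn body is a mixture of growing tissues. Liver secretes plasma proteins, skeletal muscle uses embryonic and neonatal myosins, cartilage, bone and dermis lay down collagen, skin forms its barrier, and imprinted growth genes such as Igf2 are highly active. The pool also holds the pups' own hearts, so a ratio of 0 does not mean that heart and newborn heart are alike.

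Values are log2 ratios of heart over reference after background correction and loess normalization within each array, so 1 is a 2-fold higher and -1 a 2-fold lower signal in heart. A gene was represented by 1 probe and tested where that probe was well above background on all 3 arrays in the heart channel or in the reference channel, which held for 16960 of 27670 names. It was called where limma's Benjamini-Hochberg adjusted p was under 0.05 and the mean ratio was at least 2-fold. The largest adjusted p of any called gene was 0.000661, so that the fold threshold, not the p, decided the calls. On the 3 arrays 42.5% to 44.2% of probes were well above background in the heart channel and 60.3% to 62.5% in the reference channel, and 0 spots were saturated. Log2 ratios of all probes correlated at 0.977 to 0.983 between the 3 arrays. The file headers give the arrays 3 different scan times, so the value of each single array is also the value within its scan time.

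All 3 arrays, and the other 17, carried heart in red and reference in green. None of these 20 arrays is a dye swap, so a gene's dye effect and its tissue difference cannot be told apart, and the test leaves out the spread of the reference, which the labels describe in the same words on every array. For the RNA controls spiked into both samples at known ratios, the file headers give a slope of observed on expected log ratios of 0.890 to 0.897 and an intercept of 0.087 to 0.623 on the log2 scale. The loess step also fixes the middle of the ratios at every brightness. The median over all tested genes was -0.062, and it was -0.23 in Agilent's own log ratios, -0.29 with plain median centring and -0.12 in the authors' series matrix. In bulk tissue, fewer cells of a type and less RNA per cell cannot be told apart.

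Of the 16960 genes, 3146 (18.5%) were called, 1438 (8.48%) higher and 1708 (10.1%) lower in heart. With plain median centring in place of loess the counts were 1061 and 2866, so that the higher genes made up 27.0% of the calls against 45.7%. A ratio of at least 4-fold was reached by 301 of the higher and 451 of the lower genes, and at least 10-fold by 35 and 93. Without the fold threshold 13343 genes passed, 5881 higher and 7462 lower. Probes on the array that lay above background in the reference and never in heart stood for 3794 of the 16960 tested genes, and the reverse held for 74. Among the 3794, 153 were called lower, and among the 74, 9 were called higher. For genes of both kinds a bound is given, since the dim channel was not well above background. The bound takes that channel at its normalized signal, or at the lowest level above background where this is higher. It can thus equal the ratio itself, as for Kprp at 10.3-fold.

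**Figure D1:**
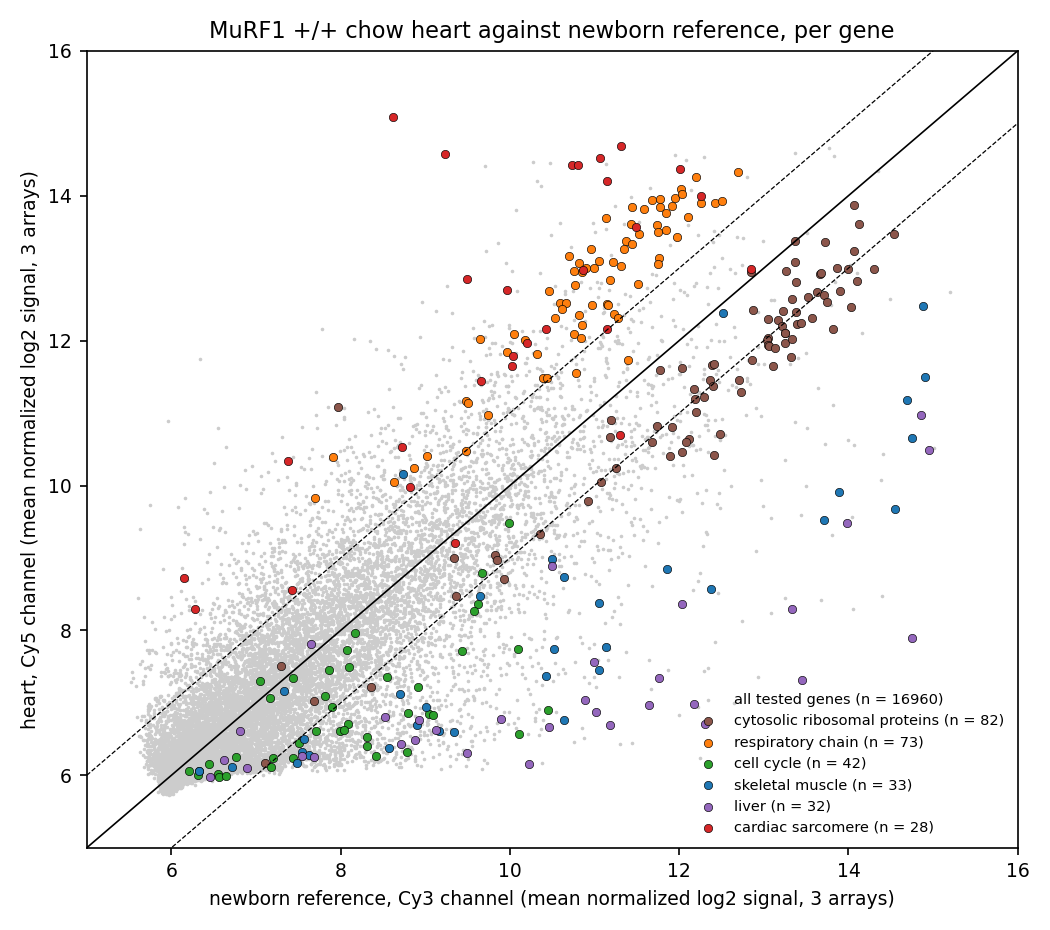
Mean normalized log2 signal of each tested gene in the heart channel (vertical) and the newborn reference channel (horizontal) over the 3 MuRF1 +/+ chow arrays, with 6 gene lists in colour, the line of equal signal (solid) and the 2-fold lines (dashed). Cardiac sarcomere and respiratory chain genes lie mostly above the upper dashed line, and skeletal muscle and liver genes mostly below the lower one.

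Mybpc3, the cardiac myosin-binding protein C, had the highest ratio of the genes measured in both channels. Its log2 ratio was 6.54, 6.37 and 6.48 on the 3 arrays, a mean of 88.3-fold (6.46 ± 0.08, SD, n = 3, limma adjusted p = 1.03e-12). The hearts differed from each other by far less than the ratio itself. Tnni3, the adult cardiac troponin I, read 5.64, 5.10 and 5.29 (40.6-fold), and a second probe of Tnni3 gave 4.67. Myh6, the alpha myosin heavy chain of the rodent ventricle, read 3.80, 3.45 and 3.60 (12.3-fold). Myl2 and Myl3, the ventricular regulatory and essential light chains, had means of 3.68 and 3.45. Of 28 sarcomere genes of heart, 25 were called higher and 0 lower, against a background of 8.48% and 10.1%, and their median log2 ratio was 2.05. Among those called were Tnnc1 (3.36) and Tnnt2 (3.06), the other troponin subunits of heart, Tcap (3.38), the titin cap of the Z-disc, Actc1 (2.08), the cardiac actin, and Des (1.62), the intermediate filament desmin. The other probe of Tnnt2 gave only 0.52.

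The exceptions were Myh7, Ttn and Pdlim5. Myh7, the beta myosin heavy chain of slow muscle and of the fetal ventricle, read -0.09, 0.51 and 0.00 in the 3 hearts, with a mean of 0.14 (adjusted p = 0.301). With plain median centring its mean was 1.03 and it was called higher, so its place as an exception rests on loess. On the other 17 arrays Myh7 ranged from -1.88 to 2.40. Ttn, the giant spring protein titin, had a mean of -0.61 at the probe used, while its 8 other probes ran from -1.69 to 0.94, so that the gene has no single ratio here. Pdlim5, a Z-disc adaptor, had a mean of -0.14, and 2 of its 4 other probes had the opposite sign.

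Among the 15 highest ratios were further genes outside the sarcomere list. Fhl2, a LIM protein of the heart muscle cell, read 4.70, 4.56 and 4.82 (25.9-fold). Lrrc10 (4.25), a leucine-rich repeat protein of the cardiac Z-disc, Lrtm1 (4.37), Asb14 (3.98), Frmd5 (3.88), Rcan2 (3.85), a regulator of calcineurin, and Strip2 (3.81) followed. Frmd5 had 2 other probes, 1 of them near 0 at -0.19. The remaining members of the highest 15 were Fabp3, Cox6a2, Ckmt2, Ldhb, Pln and Atp2a2, which are described with their pathways below. The same sign in every heart was a condition for entering these 15.

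**Figure D2:**
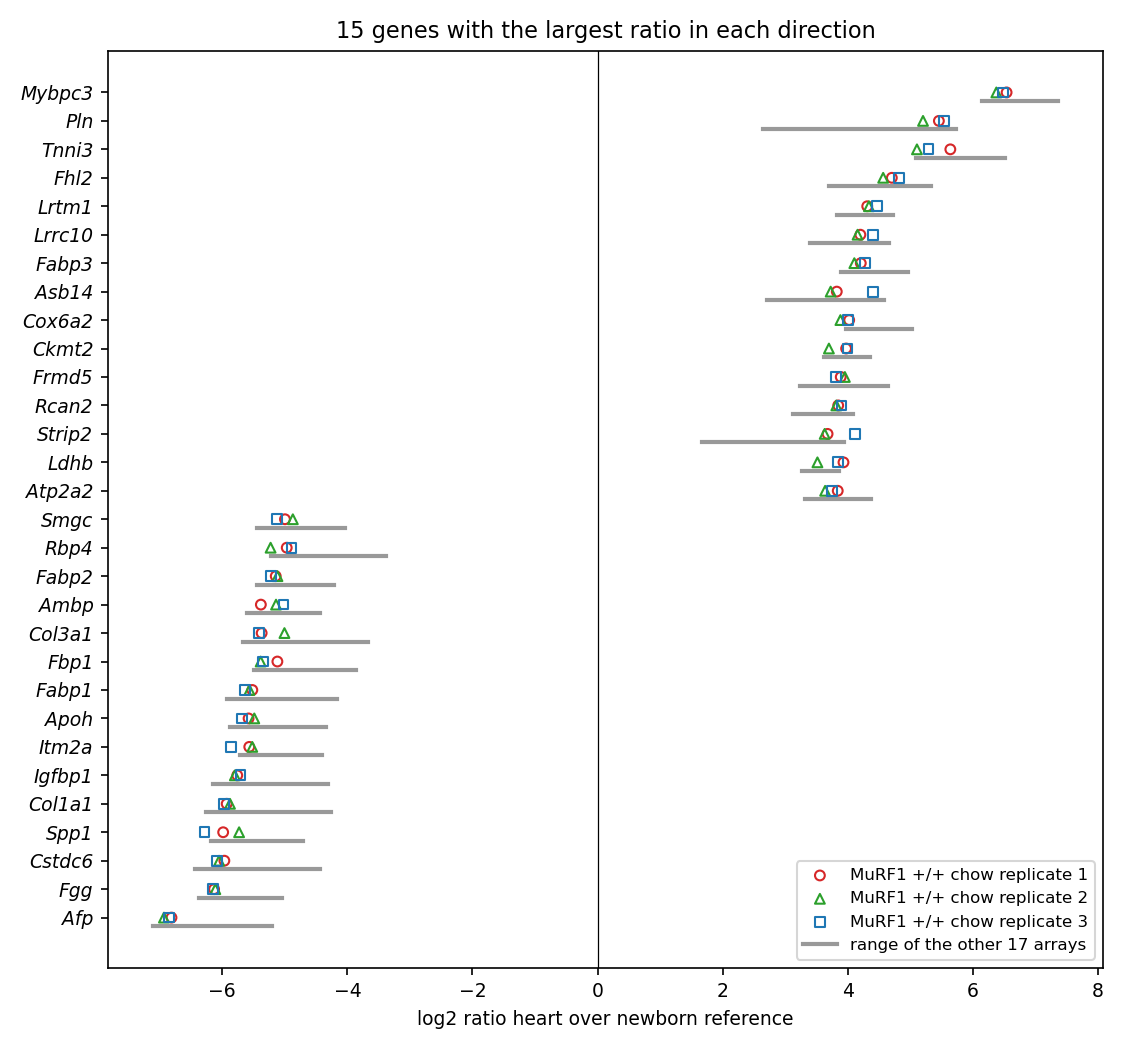
Log2 ratio of heart over newborn reference for the 15 genes with the largest mean in each direction, on the 3 MuRF1 +/+ chow arrays (symbols) and as the range of the other 17 arrays (grey bars). The 3 hearts lie within less than 1 log2 unit of each other for every gene shown, and no grey bar crosses 0.

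Calcium handling and conduction genes followed the sarcomere. Pln, phospholamban, the brake of the calcium pump, read 5.45, 5.20 and 5.54 (42.2-fold, 5.40 ± 0.18, SD, n = 3). Atp2a2, the pump itself, read 3.84, 3.64 and 3.74 (13.3-fold). Both genes lay in a narrow band over the 3 hearts. Of 33 tested genes of the list, 22 were called higher and 0 lower (median 1.29, and 2.90 in Agilent's log ratios). Jph2 (2.52), which ties the plasma membrane to the sarcoplasmic reticulum, Hrc (2.60), a calcium-binding protein of that store, and Slc8a1 (2.16), the sodium-calcium exchanger, were among them. Fkbp1b, the partner of the ryanodine receptor, had a mean of -0.69 and was the lowest member.

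Ryr2, the calcium release channel of heart, shows how dim probes limit these ratios. It was well above background in heart on 3 of 3 arrays and in the reference on 0, read 0.88, 0.69 and 1.16, and was at least 1.85-fold higher in heart. Agilent's log ratio, which adds no offset to dim signals, was 5.69 at the same probe. Across 2853 called genes above background in both channels, Agilent's log ratio was a median 1.24 times the one used here and had the opposite sign for 0. That comparison does not cover genes dim in one channel, for which bounds are given.

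Of 85 potassium channel genes on the array, 47 were tested, and 12 were called higher and 1 lower. Their median was -0.06, and 1.05 over those above background in both channels. Above background in the reference alone were 22, against 3794 of all 16960 tested genes. Kcnj14 (3.20), an inward rectifier, Kcnk3 (2.49), a leak channel, Kcnd2 (2.33), which carries the transient outward current of the mouse ventricle, Kcnq1 (2.20, its other probe opposite in sign), of the slow delayed rectifier, and Kcnj11 (1.68), the pore of the ATP-sensitive channel, were higher. Kcnmb4, a subunit of the large calcium-activated channel known from neurons, was at least 3.21-fold lower, since it was above background on the reference side alone.

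Genes of the respiratory chain were higher in heart almost without exception. Of 73 tested, 70 were called higher and 0 lower, and the median log2 ratio of 1.82 was 1.85, 1.71 and 1.91 on the single arrays. Cox6c, a subunit of cytochrome oxidase, read 2.72, 2.35 and 2.61, and Ndufa11 and Ndufs6, subunits of complex I, had means of 2.48 and 2.47. The members not called were Sdhc (0.99), just inside 2-fold, Atp5l (0.76) and Ndufc2 (0.34), all above 0. Of these, Sdhc and Atp5l were called higher with plain median centring. With plain median centring in place of loess the median of the list was 2.42.

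Cytochrome oxidase has subunits that come in a form for heart and muscle and a general form. Cox6a2, the muscle form of subunit 6A, read 4.02, 3.88 and 4.00 (15.6-fold), and its general counterpart Cox6a1 read -0.89, -1.21 and -0.81. The forms thus lay on opposite sides of 0 in every heart. Cox8b read 2.99, 2.87 and 3.06 against -0.73, -0.96 and -0.77 for Cox8a. Cox7a1 read 3.47, 3.07 and 3.36 against 1.46, 0.98 and 1.24 for Cox7a2, whose general form was thus higher in heart as well. Cox6a1 (-0.97) and Cox8a (-0.82) were inside 2-fold and not called, and the median of the general forms was 0.09 with plain median centring, so the sign of that group depends on the normalization.

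Fuel use followed the same side. In fatty acid uptake and oxidation, 23 of 40 tested genes were called higher and 2 lower (median 1.32). Fabp3, the fatty acid-binding protein of heart, read 4.21, 4.10 and 4.27 (18.3-fold). Lpl (2.62), the lipase that frees fatty acids at the vessel wall, Cpt2 (2.34) of the mitochondrial inner membrane and Acadvl (2.12), the very long chain acyl-CoA dehydrogenase, were also higher. Carnitine palmitoyltransferase 1, the gate of mitochondrial fatty acid entry, was split by isoform, with Cpt1b, the muscle form, at 2.03, 2.15 and 1.97 and Cpt1a, the liver form, at -1.21, -1.20 and -1.31. A second probe gave 1.55 for Cpt1b and -0.20 for Cpt1a. The other gene called lower was Acot1 (-1.94), a cytosolic thioesterase with near-identical copies. Pdk4, the kinase that switches off pyruvate dehydrogenase, read -0.64, -1.06 and -0.77 on chow and was not called. On the other 17 arrays, which include the fenofibrate diets, Pdk4 ranged from -0.88 to 2.87 and Acot1 from -2.06 to 1.62.

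In the tricarboxylic acid cycle 20 of 29 genes were called higher and 0 lower (median 1.28), among them Mdh1 (3.03), the cytosolic malate dehydrogenase of the malate shuttle, and Idh2 (2.47), while Cs, citrate synthase, was at 0.75 (1.68 and called higher with plain median centring) and Idh3a, a subunit of isocitrate dehydrogenase, at 0.22. Of 23 genes of ketone and branched-chain amino acid breakdown 12 were higher and 0 lower, with Oxct1 (2.41), the enzyme that lets tissues burn ketone bodies, first. Among 30 glycolysis genes, 11 were higher and 4 lower (median 0.50). Slc2a4, the insulin-responsive glucose transporter, read 3.22, 2.93 and 3.18 (8.64-fold), and Slc2a1, the general one, -0.35, -0.52 and -0.41. Ldhb, the heart form of lactate dehydrogenase, read 3.93, 3.51 and 3.84 (13.6-fold), whereas Ldha was at 0.39 with its other probe at -0.46. With plain median centring Ldha was at 1.35 and called higher. Slc16a3 (-1.90), a lactate exporter, was lower.

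Creatine kinase showed the same division, and of 9 genes listed with it and with myoglobin 6 were higher and 2 lower (median 1.48). Ckmt2, the sarcomeric mitochondrial form, read 3.97, 3.70 and 4.00 (14.8-fold), and Ckmt1, the ubiquitous mitochondrial form, -2.06, -1.94 and -2.34. Ckb, the brain form, was lower (-1.38). Ckm, the muscle form shared with skeletal muscle, was at 0.85 and not called, and at 1.34 and called with plain median centring. Mb, the oxygen store myoglobin, was 6.10-fold higher (2.61).

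Transcription factors and clock genes of the lists were called higher or not called. Of 25 cardiac factors, 11 were higher and 0 lower (median 0.90). Nkx2-5, the homeobox factor of the heart field, read 3.41, 3.15 and 3.47 (10.2-fold), followed by Myocd (2.20), a coactivator of serum response factor, Tbx20 (2.16) and Esrra (1.96), the receptor that drives mitochondrial genes, whose other probe was at -0.34. Mef2c, at -0.65, was not called, and Isl1, a factor of cardiac progenitors, was above background in the reference alone. Of 19 clock genes 7 were higher and 0 lower, with Dbp (2.45) and Nr1d2 (1.97) highest and Arntl lowest at -0.65. With plain median centring Arntl was at -1.10 and called lower. The clock list's median was 0.19, and -0.11 with plain median centring. The labels give no hour of collection for hearts or pups.

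Of 18 ubiquitin ligase genes of muscle, 8 were higher and 2 lower (median 0.66). Trim63, the gene of MuRF1, read 2.59, 2.38 and 2.49 (5.62-fold), and a second, dimmer probe of it gave 0.27. Its relatives were on both sides, with Trim54 (MuRF3) at 2.48, 2.41 and 2.44 and Trim55 (MuRF2) at -1.10, -1.28 and -1.35. Asb15 (3.76) and Asb2 (2.89), ligase adaptors of striated muscle, and Fbxo32 (1.30), atrogin-1, were higher, and Nedd4 (-1.09) was lower. With plain median centring Fbxo32, at 0.82, and Nedd4, at -0.70, were not called. Asb15 was above background in the reference on only some of the arrays.

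**Figure D3:**
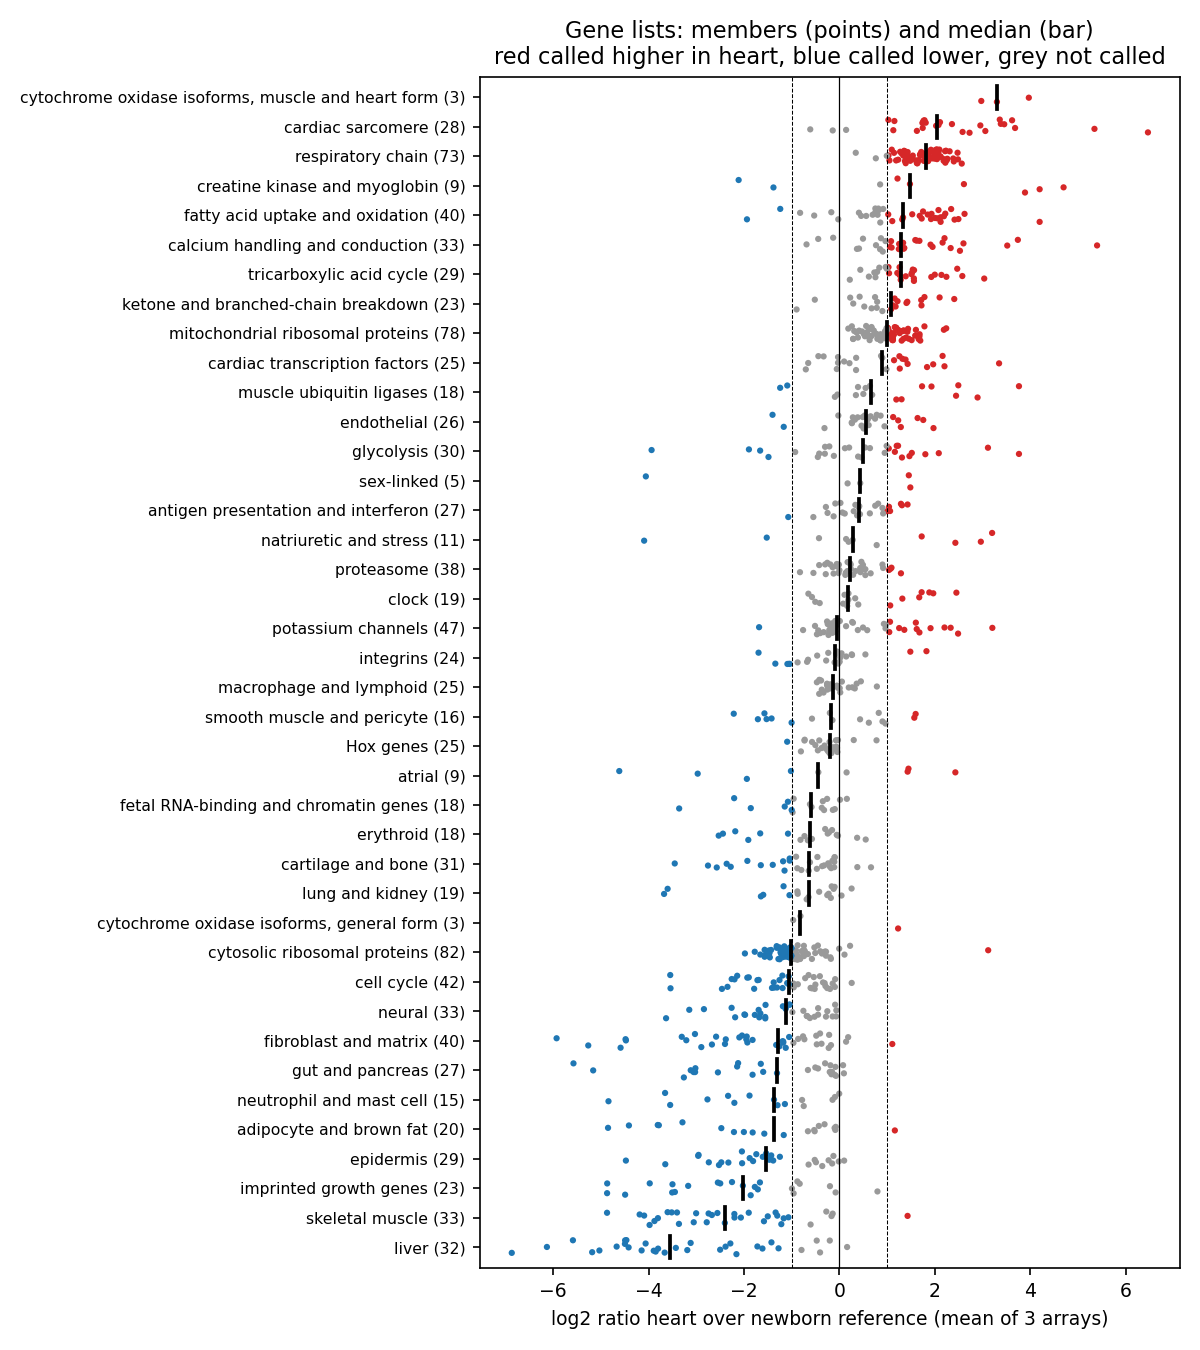
Mean log2 ratio of heart over newborn reference for the tested members of each gene list (points, red called higher in heart, blue called lower, grey not called) with the list median (black bar), sorted by median and with the number tested in parentheses. Lists of the contractile apparatus and of mitochondria lie at the top, with medians of 3.30 for the muscle forms of cytochrome oxidase and 2.05 for the cardiac sarcomere, and liver lies at the bottom at -3.55.

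The ribosome divided by compartment. Of 78 mitochondrial ribosomal protein genes, 39 were higher and 0 lower (median 1.00, lowest 0.19). Of 82 cytosolic ones, 44 were lower and 1 higher (median -1.01). The exception was Rpl3l, the striated muscle form of ribosomal protein L3, at 3.20, 2.88 and 3.27 (8.67-fold), while Rpl3, the general form, read -2.01, -2.01 and -1.93 (3.95-fold lower). Cytosolic ribosomal genes are among the brightest probes, and their ratio moved with the normalization, since the median was -0.31 with plain median centring and -1.03 in Agilent's log ratios. Their direction was the same in all of these, while the count of 44 rests on loess.

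Promoter sequences of genes on both sides are shown for the elements that are textbook features of their class. Each is the RefSeq window from 250 bases before to 50 bases after the annotated start on build GRCm38.p6, written 5′ to 3′ along the gene, with the matches in capitals. The first are Mybpc3 (chr2:91117894-91118193, plus strand), with a match to the MEF2 motif, and Myl3 (chr9:110763428-110763727, plus strand), with a CArG box, the site bound by serum response factor. Both genes were called higher in heart.
Mybpc3: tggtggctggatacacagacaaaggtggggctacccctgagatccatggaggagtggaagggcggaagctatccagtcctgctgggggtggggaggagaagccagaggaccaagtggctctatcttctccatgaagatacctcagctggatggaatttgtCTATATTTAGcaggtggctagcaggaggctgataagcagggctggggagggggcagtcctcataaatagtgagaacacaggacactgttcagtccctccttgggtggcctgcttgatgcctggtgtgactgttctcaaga
Myl3: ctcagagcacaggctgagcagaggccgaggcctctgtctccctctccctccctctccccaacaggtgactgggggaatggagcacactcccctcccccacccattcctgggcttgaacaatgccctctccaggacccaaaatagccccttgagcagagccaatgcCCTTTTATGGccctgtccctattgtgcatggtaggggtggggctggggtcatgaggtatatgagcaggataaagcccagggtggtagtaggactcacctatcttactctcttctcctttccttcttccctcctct
Promoters were found for 22 of the 28 sarcomere genes, 31 windows in all. A CArG box on either strand was in 6 of them (19.4%), against 1.63% of all 32851 windows in the table and 1.39% of those of tested genes. MEF2 was in 12.9% against 3.19% and 1.86%, and the HNF1 letters GTTAAT, an element of liver genes, were in 12.9% of the sarcomere windows as well. MEF2 was in 19.2% of the windows of skeletal muscle genes, most of which were lower, and in 9.38% of those of liver genes, so it does not set the heart-higher genes apart. In the windows of the 73 respiratory chain genes (66 windows of 61 genes) both were in 0. Over all genes called higher the shares were 1.91% (CArG) and 3.16% (MEF2), and over those called lower 2.35% and 2.02%. These matches thus describe a small class. The CArG box was also in 7.69% of the skeletal muscle and 6.25% of the liver windows, so it does not set the heart-higher genes apart either. A match is a run of letters, not a bound site.

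Genes of cell division were lower in heart. Birc5, survivin, which attends chromosome segregation, read -3.57, -3.38 and -3.68 (11.7-fold lower), and Mki67, the proliferation antigen Ki-67, -3.55, -3.31 and -3.76 (11.6-fold lower). Ccnb2, a mitotic cyclin, read -2.20, -2.22 and -2.35, and Cdc20, the activator of the anaphase-promoting complex, -2.25, -2.08 and -2.26. No heart came near 0 for these. Of 42 tested genes, 22 were lower and 0 higher (median -1.06). Above background only in the reference were 8, a smaller share than the 3794 of all 16960 tested genes. Cenpa, the centromeric histone, was the highest at 0.26, and Ccnd1 (-0.20) was not called. Of 18 fetal RNA-binding and chromatin genes, 6 were lower and 0 higher, led by Hmgb2 (-3.36), a DNA-bending protein. Uhrf1, which maintains DNA methylation in dividing cells, was above background in the reference alone and at least 4.61-fold lower.

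Promoters of mitotic genes often carry CCAAT boxes, bound by NF-Y, and a CHR element near the start. Ccnb2 (chr9:70421505-70421804, minus strand) and Cdc20 (chr4:118437294-118437593, minus strand) are shown with CCAAT and with the CHR letters TTTGAA in capitals.
Ccnb2: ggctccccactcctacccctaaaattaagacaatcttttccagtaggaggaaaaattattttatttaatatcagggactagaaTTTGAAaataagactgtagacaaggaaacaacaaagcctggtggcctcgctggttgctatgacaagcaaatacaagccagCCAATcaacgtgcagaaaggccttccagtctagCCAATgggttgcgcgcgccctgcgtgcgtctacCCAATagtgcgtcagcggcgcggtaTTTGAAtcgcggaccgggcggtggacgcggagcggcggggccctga
Cdc20: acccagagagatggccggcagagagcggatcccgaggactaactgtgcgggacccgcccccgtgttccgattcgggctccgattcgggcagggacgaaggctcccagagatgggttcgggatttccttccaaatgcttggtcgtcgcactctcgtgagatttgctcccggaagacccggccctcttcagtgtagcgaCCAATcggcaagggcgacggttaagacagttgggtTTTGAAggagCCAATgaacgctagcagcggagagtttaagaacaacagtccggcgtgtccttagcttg
CCAAT on either strand was in 26 of 38 windows of 34 cell cycle genes (68.4%), against 37.4% of all windows and 37.4% of those of tested genes. TTTGAA was in 31.6% against 17.9% and 12.4%. Among windows of all genes called lower the shares were 39.1% and 12.9%.

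On the reference side, liver genes had the lowest list median, -3.55, with 27 of 32 called lower and 0 higher. Afp, the fetal plasma protein alpha-fetoprotein, read -6.81, -6.93 and -6.86 (116.6-fold lower, -6.87 ± 0.06, SD, n = 3), the lowest ratio measured in both channels. Fgg, the gamma chain of fibrinogen, read -6.13, -6.11 and -6.15 (70.0-fold lower), and Alb, albumin, -3.87, -3.96 and -3.85 (14.8-fold lower). Apoh (-5.58), Ambp (-5.18), Rbp4 (-5.03), the plasma carrier of retinol, and Fabp1 (-5.57), the fatty acid-binding protein of liver, were further members of the lowest 15, as were Igfbp1 (-5.75) and Fbp1 (-5.28), a gluconeogenic enzyme. Fah, a tyrosine-breakdown enzyme, was at 0.16 and not called, and Hnf4a, the liver transcription factor, was above background in the reference alone. Cstdc6 (-6.03) and Smgc (32.0-fold lower), a gene of neonatal salivary gland, were also among the lowest 15. The other probe of Smgc gave only -0.27. Hepatocyte promoters often hold an HNF1 site, and Afp (chr5:90490464-90490763, plus strand) and Alb (chr5:90460620-90460919, plus strand) are shown with the HNF1 letters GTTAAT in capitals in both and TATAAA in capitals in Afp. The Alb window holds no TATAAA.
Afp: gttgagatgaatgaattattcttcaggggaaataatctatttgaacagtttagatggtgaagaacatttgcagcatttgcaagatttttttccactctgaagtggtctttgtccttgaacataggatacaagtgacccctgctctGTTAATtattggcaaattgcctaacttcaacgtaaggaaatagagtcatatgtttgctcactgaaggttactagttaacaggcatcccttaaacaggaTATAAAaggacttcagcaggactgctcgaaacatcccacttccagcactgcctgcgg
Alb: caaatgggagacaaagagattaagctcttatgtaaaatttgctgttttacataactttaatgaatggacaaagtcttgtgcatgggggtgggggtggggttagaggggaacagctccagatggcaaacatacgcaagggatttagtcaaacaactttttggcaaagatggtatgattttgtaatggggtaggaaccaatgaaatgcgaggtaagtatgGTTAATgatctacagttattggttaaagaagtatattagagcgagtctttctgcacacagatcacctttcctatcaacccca
GTTAAT on either strand was in 11 of 32 windows of 29 liver genes (34.4%), against 7.10% of all windows and 5.03% of those of tested genes. TATAAA was in 28.1% of the liver windows, in 0% of the cell cycle windows and in 34.6% of the skeletal muscle windows, against 13.6% and 8.92%.

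Collagens and matrix were the next large group. Col1a1, the main collagen of bone and dermis, read -5.93, -5.88 and -5.97 (60.8-fold lower), and its 2 other probes gave -3.40 and -0.78. Col3a1, of skin and vessels, read -5.37, -5.01 and -5.41 (38.4-fold lower), with its other probes between -0.34 and -0.02. Probes of 1 collagen gene thus shared a direction and differed widely in size. Of 40 fibroblast and matrix genes, 26 were lower and 1 higher (median -1.29), the exception being Gsn (1.11), the actin-severing protein gelsolin. Postn (-4.59), a matrix protein of growing connective tissue, was among the lower and Tcf21 (-0.38), a factor of cardiac fibroblasts, was not called. Spp1 (-6.00), osteopontin, Itm2a (-5.65) and Col2a1 (-3.45), the cartilage collagen, were lower. Among 31 genes of cartilage and bone 12 were called lower. Above background in the reference alone were 15 of them, against 3794 of all 16960 tested genes.

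Skeletal muscle was the mirror of the sarcomere list. Of 33 tested genes, 28 were called lower and 1 higher (median -2.40). Myl1, the fast essential light chain, read -4.89, -5.03 and -4.68 (29.2-fold lower), and its second probe gave -2.66. Mylpf (-4.19), the fast regulatory light chain, Acta1 (-4.09), skeletal actin, and Myh3 (-3.98), the embryonic myosin heavy chain, were lower in all 3 hearts. The gene called higher, Atp2a1, the calcium pump of fast muscle, read 1.61, 1.42 and 1.25, but its other probe gave -2.42 and the mean over both probes was -0.50, so its direction is not settled. Myh4, a fast myosin heavy chain, was at -0.14 and not called, and Myod1 was above background in the reference alone.

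Paralog by paralog, the heart form and its relatives lay apart. In 17 families picked after the values were seen, all 17 heart or muscle forms were called higher, and of 21 other forms 16 were called lower, 4 were not called and 1 (Cox7a2) was higher. In 15 families the heart form was above 0 and every other form listed was below 0. The families do not list every member, and these counts depend on which were listed. The myosin heavy chains Myh7 (0.14) and Myh4 (-0.14) were left out. The calcium pumps Atp2a2 (3.74) and Atp2a1 (1.43, with its direction not settled) are not among the families. In troponin I the split was from Tnni3 at 5.34 to -2.20 for Tnni1, the slow form that the fetal heart also uses, and -3.52 for Tnni2, the fast form. Because these pairs were chosen with their values known, the counts are a description.

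**Figure D4:**
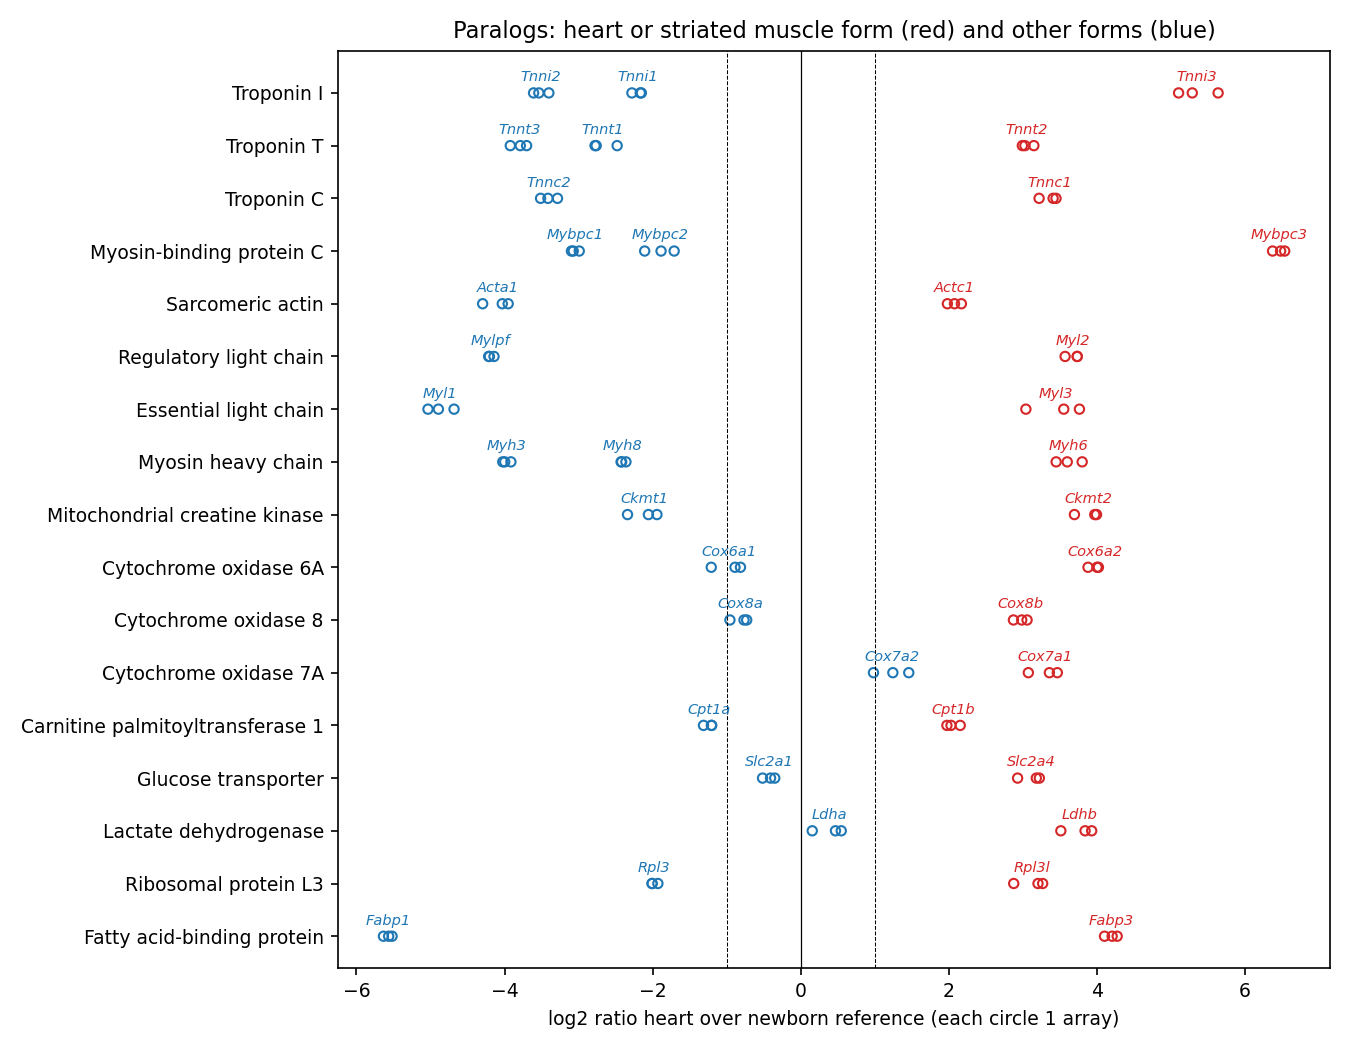
Log2 ratio of heart over newborn reference on each of the 3 MuRF1 +/+ chow arrays (circles) for 17 families of related genes, with the heart or striated muscle form in red and other forms in blue, and dashed lines at 2-fold. Every red circle lies right of the upper 2-fold line, and blue circles lie left of 0 except for Cox7a2 and Ldha.

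Atrial genes were not higher as a group. Sln, sarcolipin, a small regulator of the calcium pump in atria and in skeletal muscle, read -4.60, -4.71 and -4.53 (24.5-fold lower). Myl4 (-2.97) and Myl7 (-1.94), the atrial light chains, were lower, and both were above background in heart on all 3 arrays. Nppa, the atrial natriuretic peptide, read 2.54, 2.62 and 2.12 (5.38-fold higher). Of 9 atrial genes tested, 3 were higher and 4 lower (median -0.44). The median was 0.15 over genes above background in both channels and -2.79 in Agilent's log ratios, so it has no settled direction. The labels name cardiac tissue and do not say whether atria were kept.

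Imprinted growth genes were lower together. Of 23 tested, 16 were lower and 0 higher (median -2.02). Mest read -4.90, -4.86 and -4.84 (29.2-fold lower), Dlk1, a Notch-like inhibitor of differentiation, -4.46, -4.56 and -4.45, and Igf2, the fetal growth factor, -3.87, -4.09 and -3.97 (15.7-fold lower). H19 (-3.50), the RNA made beside Igf2, and Cdkn1c (-3.45), an inhibitor of the cell cycle and of growth, were lower as well, so genes that promote growth and genes that restrain it lay on the same side. Plagl1 read -4.61, -4.78 and -5.22, and its other probe gave -0.56. Snrpn was the highest member at 0.80 and was not called.

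Lists of other pup tissues had medians below 0, most of them with single members above 0. In epidermis 20 of 29 genes were lower and 0 higher (median -1.53), with Lor (-4.47), loricrin of the skin barrier, and Krt1 (-3.65). In gut and pancreas 14 of 27 were lower (median -1.31), with Fabp2 (-5.16) of the intestine. In neural genes 19 of 33 were lower (median -1.12), with Fabp7 (-3.63) of radial glia. Above background in the reference alone were 19 of the 33, against 3794 of all 16960 tested genes. In adipocyte and brown fat genes 11 of 20 were lower and 1, Plin4 (1.16), higher, and Ucp1, the uncoupling protein of brown fat, read -4.84, -4.83 and -4.87 (28.8-fold lower). In neutrophil and mast cell genes 10 of 15 were lower, led by S100a9 (-4.84), and in erythroid genes 6 of 18, led by Hbb-bt (-2.53), a globin with near-identical copies. Lung and kidney had 6 of 19 lower, among them Sftpc (-3.60), a surfactant protein. Of 25 tested Hox genes 1 was called lower, Hoxa7 (-1.10), a smaller share than the 10.1% of all genes, and 19 were above background in the reference alone. The Hox median was -0.21, and 0.01 over genes above background in both channels. Sizes of these lists rest on how dim probes are handled, since in Agilent's log ratios the median was -3.31 for neural, -3.20 for gut and pancreas and -3.60 for neutrophil and mast cell genes.

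Genes of vessels and immune cells, which heart and pup both hold, lay on both sides of 0. Of 26 endothelial genes 6 were higher and 2 lower (median 0.56, and 0.20 with plain median centring). Tcf15 (1.97), a transcription factor of heart capillaries, Flt1 (1.76), a VEGF receptor, and Gpihbp1 (1.23, and 0.99 with plain median centring, not called), which carries lipoprotein lipase across capillaries, were higher, Pecam1 was at -0.02, and Cldn5 (-1.40), a tight junction protein, was lower. Of 25 macrophage and lymphoid genes 0 were called at 2-fold (median -0.13, from -0.47 to 0.78). An unadjusted limma p under 0.05 was reached by 18 of them, a smaller share than the 13559 of all 16960 tested genes. Csf1r, the receptor of macrophage growth, read -0.14, -0.01 and -0.23, with its other probe opposite in sign. Antigen presentation and interferon genes had 6 of 27 higher and 1 lower, led by H2-Ab1 (1.43), an MHC class II chain. With plain median centring H2-Ab1 was at 0.98 and not called, and the list median of 0.40 was 0.14. Among smooth muscle and pericyte genes 2 of 16 were higher, Abcc9 (1.60, not called with the mean of its probes) and Rgs5 (1.57). Lower were 6 of them, with Cnn1 (-2.21), a smooth muscle calponin, lowest. Proteasome genes had 4 of 38 higher and 0 lower (median 0.23), and integrins 2 of 24 higher, with Itga7 (1.82), the laminin receptor of striated muscle, first, and 5 lower. The higher counts of the smooth muscle and pericyte, proteasome and integrin lists are near the 8.48% of all tested genes.

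Ddx3y and Eif2s3y, encoded on the Y chromosome, were higher in all 3 hearts, with means of 1.49 and 1.45, the only genes called higher of the 5 sex-linked genes tested. Xist, which coats the silenced X chromosome of female cells, read -4.06, -3.87 and -4.24, and was above background in heart on only some of the arrays. The labels give the sex of neither hearts nor pups, so a difference in sex cannot be told apart from one of tissue or age at these genes.

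Genes seen on 1 side only have bounds. On the heart side Mov10l1, a helicase of the germ line with a cardiac form, was at least 7.11-fold higher (2.92, 2.40 and 3.22). Gpr22, an orphan receptor of heart and brain, was at least 3.21-fold, and Tnni3k, a heart kinase, at least 2.25-fold higher. Mmp3, Rbm20, which splices titin, Kcnv2, Ryr2, Ccl8, Opn4 and Pla2g2c completed the 10 with the largest bounds. On the reference side Cfi, a complement factor of liver, was at least 12.0-fold lower, Kprp at least 10.3-fold and Hrnr, both of the skin barrier, at least 8.93-fold. Cyp3a41a, Aadac and Slco1b2 of liver, Tceal7, Ibsp of bone and Kera of the cornea and tendon had smaller bounds.

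The 3 hearts differed most from each other at a few inducible genes. Nppb, the B-type natriuretic peptide, a gene of cardiac wall stress, read 2.60, 4.06 and 2.93, so that its range of 1.46 on the log2 scale was wide but left all 3 hearts well above 0. Ankrd1, a stretch-sensitive muscle ankyrin, read 2.72, 3.49 and 2.68 and was likewise highest in replicate 2. Of 11 natriuretic and stress genes tested, 4 were higher and 2 lower (median 0.28). Nr4a1, an immediate early gene, read -0.29, -1.06 and -1.76, and Ddit4, a stress-induced inhibitor of mTOR, -0.77, 0.56 and -0.35. Msln, the mesothelial protein mesothelin, read -1.45, -0.28 and -1.78, and Irx1, a homeobox gene, 0.21, -1.20 and -0.44. Il15, a cytokine of muscle, read 2.17, 1.29 and 2.58, and on the other 17 arrays it ran from 0.06 to 1.25, below every chow MuRF1 +/+ heart. Cpxm2, Rsrp1 and Rsph3a were also among the 10. The median SD over the 3 hearts of the ratio was 0.086 over 11841 probes measured on all 20 arrays.

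The other 5 groups of hearts had the same kind of reference and dye orientation, and are given as ranges over arrays. The cardiac sarcomere median was 2.02 to 2.08 on the MuRF1 +/+ chow arrays and 1.85 to 2.35 on the others. The liver median was -3.55 to -3.51 on chow MuRF1 +/+ and -3.88 to -2.57 on the others, and the cell cycle median -1.18 to -0.92 and -1.30 to -0.74. Calcium handling and conduction genes were more spread, from 0.23 to 1.47 on the others against 1.18 to 1.33, with 0.23 and 0.85 as the limits after 8 weeks of fenofibrate in MuRF1 +/+. The endothelial median was 0.56 to 0.61 on chow MuRF1 +/+ and 0.72 to 1.83 in that fenofibrate group. In the same group, each on its lowest array, the median of tricarboxylic acid cycle genes was 0.15 (1.27 to 1.37 on chow MuRF1 +/+), that of ketone and branched-chain breakdown 0.090 (0.88 to 1.03), and that of creatine kinase and myoglobin 0.099 (1.36 to 1.66). Medians of the glycolysis and proteasome lists were below 0 on some arrays of other groups. The sex-linked median, 0.28 to 0.57 on chow MuRF1 +/+, was below 0 on every MuRF1 +/+ fenofibrate array. It was -0.50 to -0.05 there after 3 weeks and -0.76 to -0.41 after 8 weeks. In MuRF1 -/- hearts it was 0.29 to 0.35 on chow. After 3 and 8 weeks of fenofibrate it was -0.20 to -0.05 and -0.68 to 0.26 in MuRF1 -/-. On the 3 chow arrays the median SD of the signal was 0.072 in the reference channel and 0.14 in the heart channel.

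**Figure D5:**
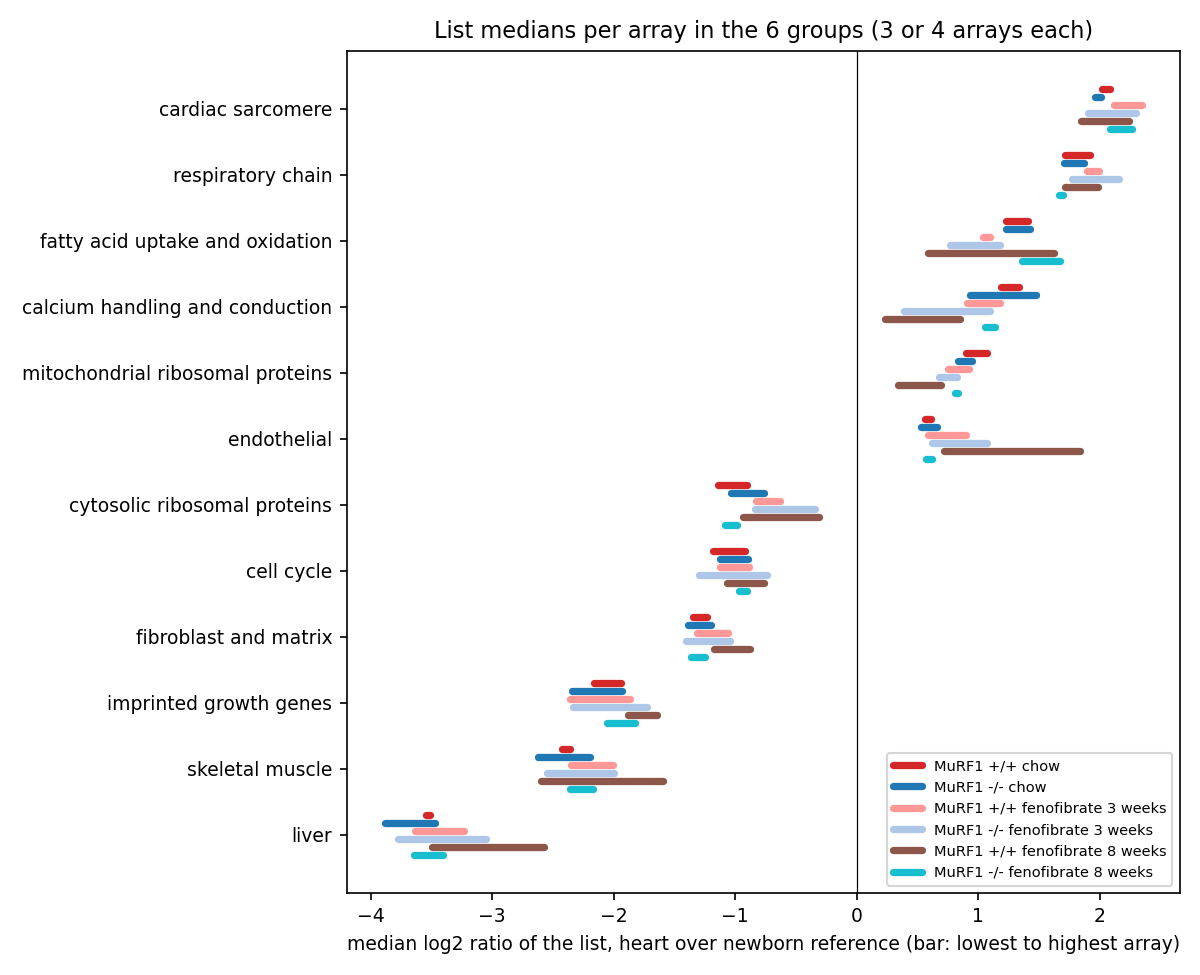
Median log2 ratio of heart over newborn reference of 12 gene lists, as the range from the lowest to the highest array of each of the 6 groups (3 or 4 arrays each, all with heart in Cy5 and pooled pups in Cy3). Every list keeps the same side of 0 on all 20 arrays.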

How the data were processed

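Each array held Cy5-labelled heart RNA and Cy3-labelled RNA of the newborn pool, per the labels; the labels' protocol text gives Cy3 for heart RNA, whereas the channel labels, which were used, give Cy5. The deposited scanner files hold the mean intensity and the median background intensity of each spot in each channel, quantified with Agilent Feature Extraction 9.5.3.1 per the file headers, with flags for outliers and for signal above background given as other values. They also hold Agilent's log10 ratio of red over green, background-subtracted and dye-normalized per the file headers. Log2 ratios processed by the authors, with centring and direction unstated, were taken from the deposited series matrix. Set against the scanner values, their slope was 0.918 to 0.978 on bright probes, so red over green on the log2 scale, and the 3 columns used had medians of -0.0007 to 0.0091.

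From the scanner files, background was corrected with normexp (offset 50) and ratios were normalized by loess within arrays in limma 3.58.1 (R 4.3.3), without quantile scaling between arrays. Control spots and outlier flags were left out. The 43379 spots were averaged to 41174 probes, of which 22951 were named by accession, 6659 by symbol and 3109 by synonym through the RefSeq table (GRCm38.p6), and 8455 kept the file's name. The ratios of the 3 arrays were tested against 0 with limma's moderated test (trended prior with 7.98 degrees of freedom, 2 residual). The precision is limited by 3 arrays and by the reference, for which the labels name no replicate pools. In simulated data with 200 changed genes among 16960, 197 were recovered with 0 false calls, 97 of 100 at a log2 change of 1.5 and 100 of 100 at 3. In the data themselves 13343 genes passed the adjusted p, so the simulated setting differs. The simulation cannot show how many calls come from dye or from the reference pool, which this design cannot tell apart from tissue.

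Named genes are the leading and defining members of the lists and the 10 largest bounds on each side. They also include the 10 genes with the largest range over the hearts. The 15 highest and lowest ratios were taken among called genes measured in both channels, with the same sign in every heart as a condition. Some genes that this rule takes are not reported here. The members and lists were chosen with earlier results of these data known. The paralog families and the promoters shown were chosen after the values were seen. Alternatives changed the background correction, normalization, filter, probe choice, fold threshold, arrays in the fit and source of the ratios. The other 17 arrays were used as ranges only. Plots were drawn with matplotlib 3.10.9 in Python 3.11.15 with pandas 2.3.3.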

Additional observations from a re-analysis of the deposited data

How the results depend on the processing

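The counts of 1438 genes higher and 1708 lower in heart depended on how ratios of dim probes were handled and on the normalization. Agilent's log ratio, which adds no offset, gave 3196 and 5622, among them 1438 and 1705 of the same genes. Plain median centring in place of loess gave 1061 higher and 2866 lower, with 950 and 1593 shared, so the share of higher genes among the calls was 27.0% against 45.7%. Dropping the 2-fold threshold gave 5881 and 7462. Leaving out each replicate in turn gave 1348 to 1526 higher and 1619 to 1787 lower genes. The other alternatives stayed within 1.5 times of both counts, with the series matrix at 2026 and 2501 and the test against a 2-fold threshold (treat) at 1074 and 1279. A fit of all 20 arrays with the replicate number as a block gave 1375 and 1561; the numbers name hearts of different mice and the labels do not pair them. Of 40 list medians, 2 changed sign under median centring, the clock genes (-0.11) and the general cytochrome oxidase forms (0.09). With genes above background in both channels 3 did, potassium channels (1.05), atrial genes (0.15) and Hox genes (0.01). With no filter on dim probes 1 did. Of 189 genes tracked singly, 9 lost their call and 10 gained one with median centring, and 5 lost it with the mean of probes (Cpt1a, Ckb, Esrra, Cpxm2 and Abcc9). With the mean of probes 1 gained it and 1 reversed, Atp2a1 at -0.50. Agilent's log ratio added 12 calls and lost 0. Without replicate 3, Nr4a1, Msln and Rbm20 were not called. The causes were not tested. Signal over background limits the 3794 tested genes that were well above background in the reference and on 0 heart arrays, whose sizes are bounds.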
